A study of Homo sapiens with 6 samples.

Results

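The genes described here are the 9 core genes of transforming growth factor-β (TGF-β) signaling in LX-2 cells: the ligands TGFB1, TGFB2 and TGFB3, the receptors TGFBR1, TGFBR2 and TGFBR3, and the signal transducers SMAD2, SMAD3 and SMAD7. They were taken by gene symbol from the 60605 rows with an Ensembl identifier in the deposited table, each symbol matched a single row, and all 9 passed the filter on low counts that left 16707 genes for testing. LX-2 is an established human hepatic stellate cell line, and all cells were kept for 24 h in medium conditioned by HCT116, an established human colorectal carcinoma line. In Vector-CM (n = 3) the HCT116 cells carried an empty vector, and in FGFBP1-CM (n = 3) they stably overexpressed FGFBP1, a secreted protein that releases fibroblast growth factors from the matrix. In both groups the conditioning cells were infected with lentivirus and selected with puromycin, and LX-2 cells in unconditioned medium were not analysed here. RNA of the LX-2 cells was sequenced, so ligand protein in the medium was not measured.

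TGF-β ligands are secreted in a latent form bound to matrix and are released before they can signal. An active ligand brings together the type II receptor, TGFBR2, and the type I receptor, TGFBR1, which phosphorylates SMAD2 and SMAD3, and these enter the nucleus with SMAD4 to regulate target genes. SMAD7 is an inhibitor that is itself induced by the pathway. In the liver this pathway is the best known driver of stellate cell activation and of collagen deposition in fibrosis.

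None of the 9 genes passed an adjusted p of 0.05 between the groups in the edgeR quasi-likelihood test, where 0.12% of the tested genes did. At an unadjusted p under 0.05 there were 4, all lower in FGFBP1-CM, where 10.7% of the tested genes were lower. DESeq2 called 1 of the 9 and 4.75% of the genes it tested, and limma called none of the 9 and 0.00599% of all, so that limma could not set the 9 genes apart from the rest. TGFB1 lay closest to the threshold, at 78.3% of the Vector-CM level in FGFBP1-CM and with no overlap between the groups. SMAD7 was also lower in all FGFBP1-CM libraries than in any Vector-CM library, and TGFBR1 was higher by a small margin that turned slightly negative with a correction for GC content and length. With that correction TGFB1 and SMAD7 moved nearer to 0, at -0.28 and -0.16 on the log2 scale. TGFB2, TGFBR3 and SMAD2 moved away from 0, at -0.49, -0.30 and -0.15. In the reported analysis the estimates of TGFBR2 and SMAD2 lay near 0, and those of TGFB2, TGFB3 and TGFBR3 rested on libraries that differed widely within FGFBP1-CM.

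Libraries held 14003780 to 18508113 counts. Levels within a gene are given as CPM, counts scaled to the TMM-adjusted library size, and levels between genes as FPKM, fragments scaled to gene length and to mapped reads. All libraries were read at similar depth, and 3 counts corresponded to 0.158 to 0.217 CPM. FGFBP1-CM replicate 1 stood farthest from the others of its group, with a chi-square per degree of freedom of 8.91 and 8.23 against replicates 2 and 3, which gave 4.29 with each other. Of 14 stellate cell markers, 12 had at least 10 counts in every library, while DES was near 0 and LRAT was at 0. The summed level of these markers was 3620 to 3880 CPM in Vector-CM and 2800 to 3350 CPM in FGFBP1-CM. None of 10 colorectal epithelial markers reached 10 counts in every library, CEACAM5 was at 0, and their sum was 2.23 to 2.56 CPM in Vector-CM and 2.01 to 2.45 CPM in FGFBP1-CM. Of 14 hepatocyte markers, 2 had at least 10 counts in every library, and the summed level was 41.8 to 44.7 CPM in Vector-CM against 18.5 to 28.4 CPM in FGFBP1-CM. SERPINA1 made up most of that sum, with an edgeR estimate of -0.53 on the log2 scale, while all 6 tested hepatocyte markers were lower without overlap and 4 of them (ALB, APOB, AFP and FGA) were among the 20 genes called in the whole table. ALB, APOB and AFP fell by 2.44, 3.59 and 2.19 on the log2 scale, and FGA had 13 to 16 counts in Vector-CM and 0 to 2 in FGFBP1-CM. Endothelial markers summed to 14.6 to 16.7 CPM and 13.6 to 16.6 CPM, and leukocyte markers to 3.83 to 4.3 CPM and 3.36 to 5.84 CPM. The part of the stellate and hepatocyte marker differences in the results below was not tested.

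By FPKM, which allows genes to be compared, SMAD3 had the highest mean of the 9 genes over the 6 libraries, 32.5 ± 1.97 (SD, n = 6). TGFB1 followed at 31.7 ± 4.0 and TGFBR1 at 28.9 ± 1.30. The ranges of these neighbors overlapped over the 6 libraries, so their order is not resolved. TGFBR2 followed at 18.04 ± 0.738 FPKM and TGFBR3 at 9.23 ± 1.20 FPKM, with ranges apart from each other. SMAD7 had 6.23 ± 0.542 FPKM, a range that overlapped that of TGFBR3, and SMAD2 had 5.15 ± 0.270 FPKM. The ligands TGFB2, at 0.970 ± 0.197 FPKM, and TGFB3, at 0.178 ± 0.0770 FPKM, lay well below all the others. The order of the means of the 9 genes was the same when counts were divided by the length of the principal transcript. Then SMAD3 and TGFB1 no longer overlapped, nor did TGFBR3 and SMAD7, while SMAD7 and SMAD2 did.

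**Figure D1:**
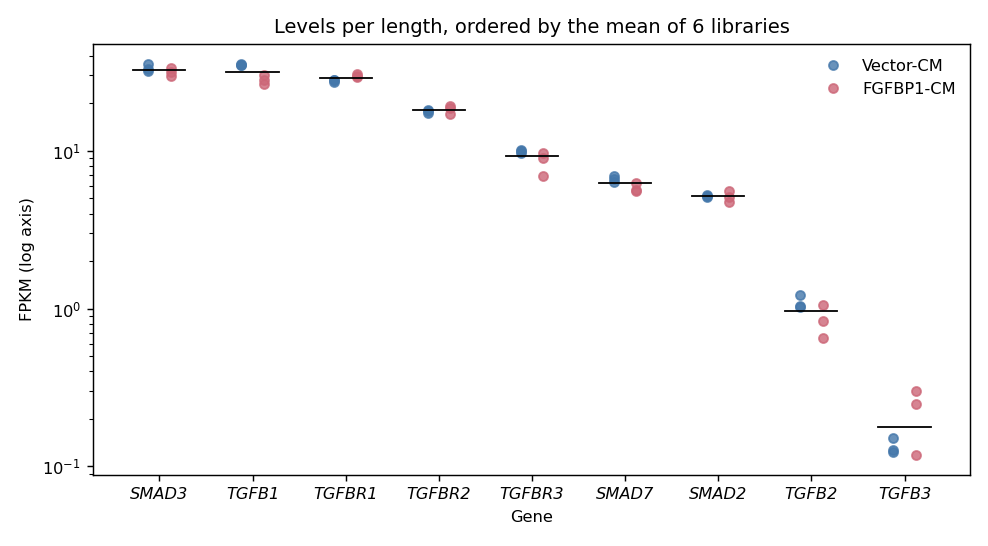
FPKM on a log axis for each gene, ordered by the mean over 6 libraries (black bar), with 1 point per library in Vector-CM (blue) and FGFBP1-CM (red). TGFB2 and TGFB3 sit far below TGFB1, which lies beside SMAD3 and TGFBR1.

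TGFB1 made up 96.5% ± 0.346 (SD, n = 6) of the summed FPKM of the 3 ligands, 96.6% ± 0.338 in Vector-CM and 96.4% ± 0.360 in FGFBP1-CM (n = 3 each). With a share this close to the whole, changes of TGFB2 or TGFB3 hardly move it. Per principal transcript length the share was 96.3% ± 0.376 in Vector-CM and 95.7% ± 0.236 in FGFBP1-CM. Among the receptors, the FPKM of TGFBR1 was 1.60 ± 0.0857 times that of TGFBR2 (SD, n = 6). TGFBR2 had 1.80 ± 0.0287 times the FPKM of TGFBR3 in Vector-CM and 2.19 ± 0.436 times in FGFBP1-CM (n = 3 each), and the ratio of 2.69 in FGFBP1-CM replicate 1 set the higher spread. In the same unit, SMAD3 had 6.33 ± 0.553 times the level of SMAD2 (SD, n = 6). This ratio and that of TGFBR1 to TGFBR2 depend on the length used. Per principal transcript length (34526 bases for SMAD2 and 6247 for SMAD3) the first was 9.58 ± 0.837 and the second 1.13 ± 0.0605. Both units use a very long SMAD2, as the deposited FPKM imply 36426 bases for it. Before division by length, mean CPM in Vector-CM was 191 for SMAD2, 338 for SMAD3 and 26.5 for SMAD7. In FGFBP1-CM it was 185, 312 and 22.8. The low place of SMAD2 thus rests on these lengths, and which SMAD2 transcript the cells use was not tested.

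TGFB1 (ENSG00000105329; chromosome 19, 41301587 to 41353911, minus strand, 8 exon blocks) encodes the ligand that is the main fibrogenic form in liver. Its promoter is shown because EGR1, a zinc finger factor induced by fibroblast growth factor signaling, is on the pathway the study proposed. The window holds the 250 bases before the RefSeq start on GRCh38.p14 (chr19:41353923-41354172, minus strand), and capitals mark matches to the motif GCGNGGGCG on either strand. TGFBR1 was the only other gene of the 9 with a match, at the start listed as the seventh of its 8 starts (chr9:99105325-99105574, plus strand).
TGFB1: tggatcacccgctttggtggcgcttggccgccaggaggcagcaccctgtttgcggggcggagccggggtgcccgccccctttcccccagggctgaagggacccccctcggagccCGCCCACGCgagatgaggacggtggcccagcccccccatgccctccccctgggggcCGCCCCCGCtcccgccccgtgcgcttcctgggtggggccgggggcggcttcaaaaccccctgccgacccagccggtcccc
TGFBR1: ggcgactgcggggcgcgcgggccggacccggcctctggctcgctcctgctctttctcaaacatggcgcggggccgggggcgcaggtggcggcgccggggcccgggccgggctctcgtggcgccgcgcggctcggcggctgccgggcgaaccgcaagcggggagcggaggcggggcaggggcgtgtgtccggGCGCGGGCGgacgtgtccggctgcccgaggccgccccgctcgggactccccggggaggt
The TGFB1 matches lay 136 and 80 bases before the start, both on the opposite strand, and the TGFBR1 match lay 59 bases before it. A match was found in 8.41% of all 35116 windows of this length, in 28.9% of those with at least 70% GC, and at least 2 matches in 1.31% of all. The TGFB1 window has 76.8% GC against a median of 58.0% over all windows. The palindromic SMAD element GTCTAGAC, found in 0.182% of all windows, was in none of the 25 windows of the 9 genes, and the AP-1 motif TGANTCA, found in 6.57%, was in 1 of them, at SMAD3. The short SMAD element CAGACA, found in 13.6% of all windows, was in 4 of the 25, at TGFB2, SMAD3 and 2 starts of TGFBR1, on either strand. These matches describe letters only and draw nothing about binding of a factor.

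Vector-CM libraries held 2047, 1630 and 1740 counts of TGFB1, while FGFBP1-CM libraries held 1604, 1564 and 1484, in replicate order here and below. In CPM the values were 114, 118 and 117 against 84.6, 98.2 and 90.8. All FGFBP1-CM libraries were lower than every Vector-CM library. The means were 116 ± 1.93 CPM and 91.2 ± 6.78 CPM (SD, n = 3 each), a log2 fold change of -0.35 (SE 0.0684, 95% interval -0.50 to -0.21), or 78.3% of the Vector-CM level (95% interval 70.7% to 86.7%), with an adjusted p of 0.0568 (edgeR). Just above the threshold, between 0.05 and 0.06, lay the adjusted p of 129 genes, and TGFB1 was 46th by p among the tested genes. It passed the threshold in 4 of 16 alternative analyses, namely DESeq2 (adjusted p = 0.00267), no filter on low counts (adjusted p = 0.000906, edgeR), and edgeR without FGFBP1-CM replicate 2 (adjusted p = 0.0129) or replicate 3 (adjusted p = 0.0416). The last 3 of these called 3.64%, 5.15% and 2.34% of the genes they tested. TGFB1 did not pass without Vector-CM replicate 1, 2 or 3 (adjusted p = 0.134, 0.176 and 0.242, edgeR). Without FGFBP1-CM replicate 1, where its CPM was lowest, the log2 fold change was -0.30 (adjusted p = 0.0528, edgeR). With GC and length correction it was -0.28 (adjusted p = 0.0641, edgeR). In limma the adjusted p was 0.185 and 0.176 with pseudocounts of 1 and 0.1. With no filter, edgeR took the spread of each gene wholly from the trend over all genes, unlike in its other alternatives. Fewer cells making TGFB1 and less TGFB1 RNA per cell cannot be told apart in such bulk samples. Exons of TGFB1 share 215 bases with HNRNPUL1 on the opposite strand (3685 to 4600 counts per library), whose log2 fold change was -0.05 (edgeR adjusted p = 0.668), and whether counting used strand is not given in the sources used here.

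**Figure D2:**
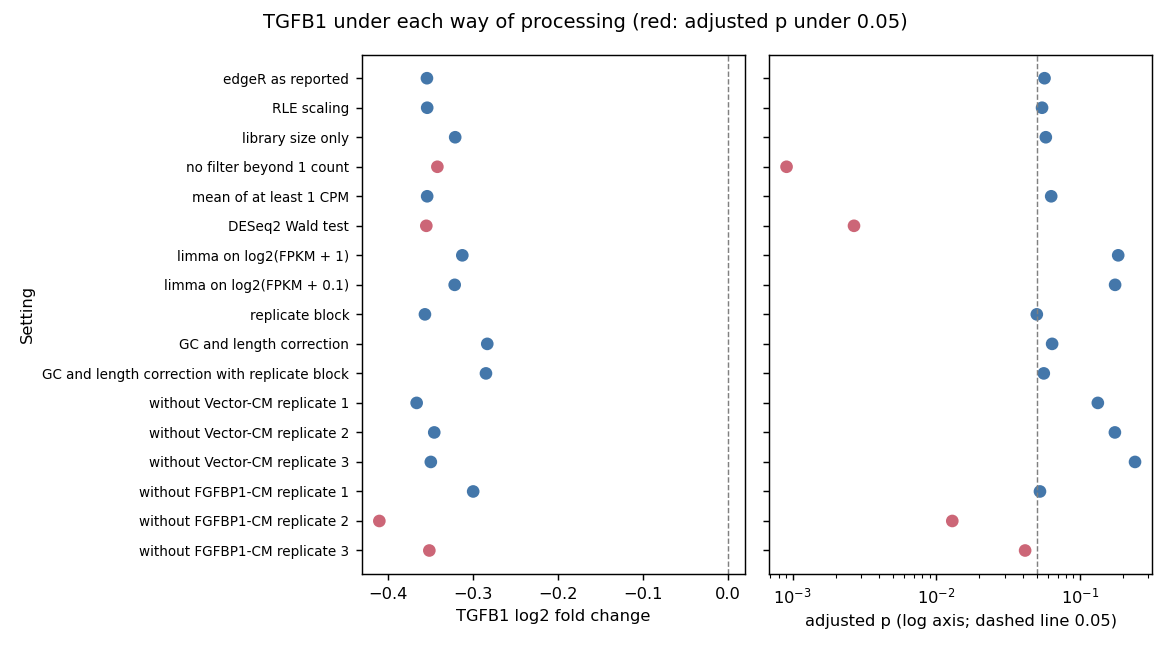
TGFB1 log2 fold change (left) and adjusted p on a log axis (right) in the reported analysis and the 16 alternatives, with points under 0.05 in red. The log2 fold change stayed between -0.41 and -0.28. The adjusted p lay between 0.000906 and 0.242, both from edgeR, the lower with no filter on low counts.

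TGFB2 (ENSG00000092969; chromosome 1, 218346235 to 218444619, plus strand) encodes a ligand that needs the co-receptor TGFBR3 for efficient signaling. Its CPM was 6.31, 6.29 and 7.55 in Vector-CM and 3.85, 5.08 and 6.30 in FGFBP1-CM. The groups overlapped by a narrow margin, at 6.29 CPM in Vector-CM replicate 2 and 6.30 CPM in FGFBP1-CM replicate 3. The log2 fold change was -0.41 (SE 0.179, 95% interval -0.80 to -0.02, adjusted p = 0.203, edgeR), and -0.23 without FGFBP1-CM replicate 1. TGFB3 (ENSG00000119699; chromosome 14, 75958099 to 75982991, minus strand), the third ligand, had 12, 9 and 12 counts in Vector-CM and 24, 25 and 10 counts in FGFBP1-CM. The count of FGFBP1-CM replicate 3 lay within the Vector-CM range, its CPM of 0.612 was the lowest of all libraries, and the other two lay above the Vector-CM range. The log2 fold change of TGFB3 was 0.69 (SE 0.359, 95% interval -0.08 to 1.47, adjusted p = 0.280, edgeR), 0.43 without FGFBP1-CM replicate 2 and 0.98 without replicate 3 (adjusted p = 0.106, edgeR), and at this depth the 95% interval ran from 94.6% to 276% of the Vector-CM level.

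**Figure D3:**
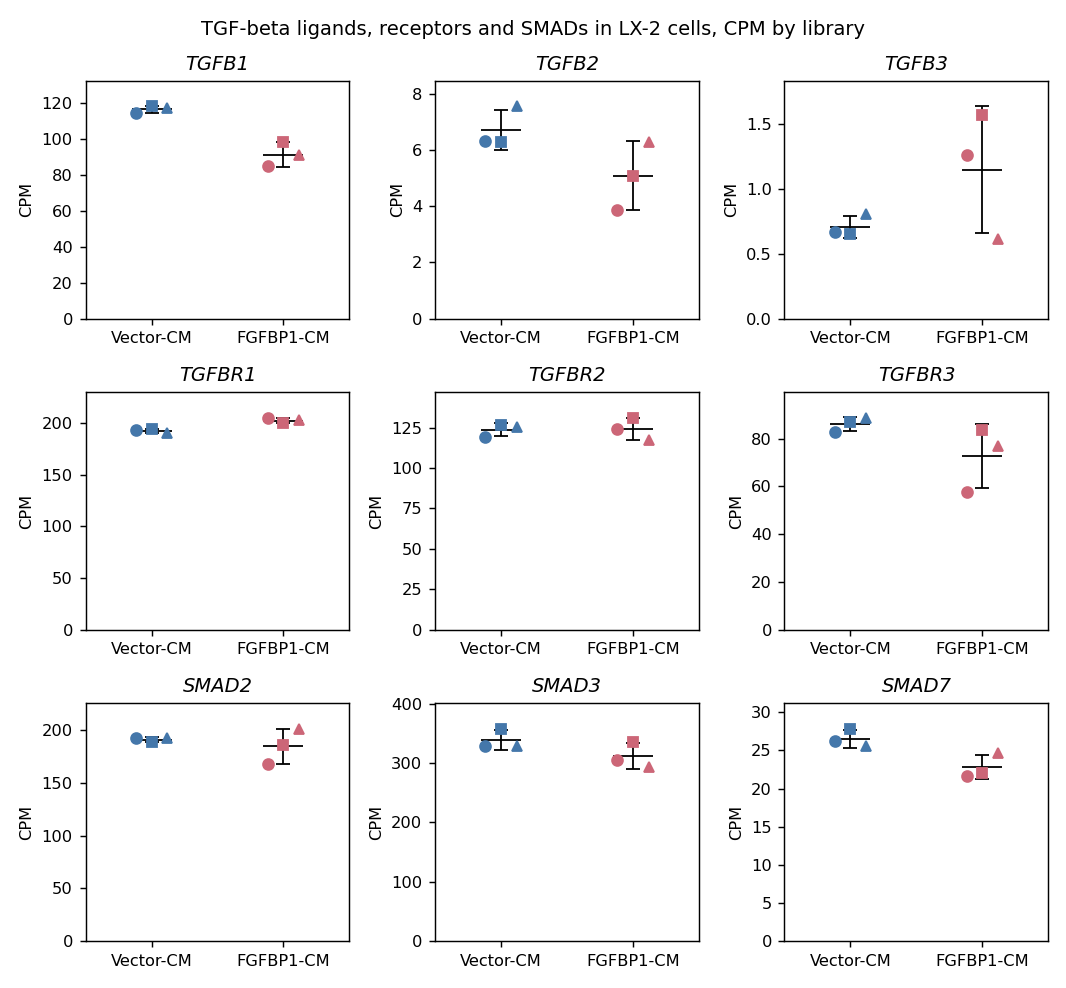
CPM of each gene by library, as points (circle, square and triangle for replicates 1, 2 and 3), with group mean and SD as bars; each panel has its own axis from 0. The groups are apart for TGFB1, SMAD7 and TGFBR1, and in FGFBP1-CM replicate 1 (circle) TGFBR3 is lower than in the other FGFBP1-CM libraries.

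TGFBR1 (ENSG00000106799; chromosome 9, 99104038 to 99154192, plus strand) encodes the type I kinase. Its CPM was 193, 194 and 190 in Vector-CM and 205, 200 and 202 in FGFBP1-CM. Every FGFBP1-CM library was higher, by a small margin, and 12.8% of tested genes were higher without overlap. The log2 fold change was 0.07 (SE 0.0580, 95% interval -0.05 to 0.20, adjusted p = 0.502, edgeR), and its direction turned with a correction for GC content and length (-0.01). TGFBR2 (ENSG00000163513; chromosome 3, 30606502 to 30694142, plus strand), the type II kinase that binds the ligand first, had 119, 127 and 125 CPM in Vector-CM and 124, 131 and 117 CPM in FGFBP1-CM. The groups overlapped over nearly their whole range, and the log2 fold change was 0.01 (SE 0.0654, 95% interval -0.13 to 0.15, adjusted p = 0.966, edgeR).

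TGFBR3 (ENSG00000069702; chromosome 1, 91680343 to 91906335, minus strand) encodes betaglycan, the co-receptor that presents ligand to TGFBR2. Its CPM was 82.9, 86.9 and 88.8 in Vector-CM and 57.8, 83.5 and 77.1 in FGFBP1-CM. FGFBP1-CM replicate 1 was far lower than the rest, and replicate 2 lay within the Vector-CM range. The log2 fold change was -0.25 (SE 0.107, 95% interval -0.48 to -0.01, adjusted p = 0.203, edgeR) and moved to -0.10 without FGFBP1-CM replicate 1.

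SMAD2 (ENSG00000175387; chromosome 18, 47808957 to 47931146, minus strand) and SMAD3 (ENSG00000166949; chromosome 15, 67063763 to 67195195, plus strand) encode the transducers that TGFBR1 phosphorylates. SMAD2 had 193, 189 and 193 CPM in Vector-CM and 168, 186 and 201 CPM in FGFBP1-CM, and SMAD3 had 329, 358 and 329 CPM against 306, 336 and 294 CPM. Both genes overlapped between groups. The log2 fold changes were -0.05 for SMAD2 (95% interval -0.20 to 0.10, adjusted p = 0.731) and -0.12 for SMAD3 (95% interval -0.27 to 0.03, adjusted p = 0.343, edgeR for both), and that of SMAD2 turned to 0.02 without FGFBP1-CM replicate 1. SMAD7 (ENSG00000101665; chromosome 18, 48919853 to 48952052, minus strand), the inhibitor, had 26.2, 27.9 and 25.5 CPM in Vector-CM and 21.7, 22.1 and 24.7 CPM in FGFBP1-CM. Its groups did not overlap, and its log2 fold change was -0.22 (SE 0.0873, 95% interval -0.41 to -0.03, adjusted p = 0.175, edgeR).

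**Figure D4:**
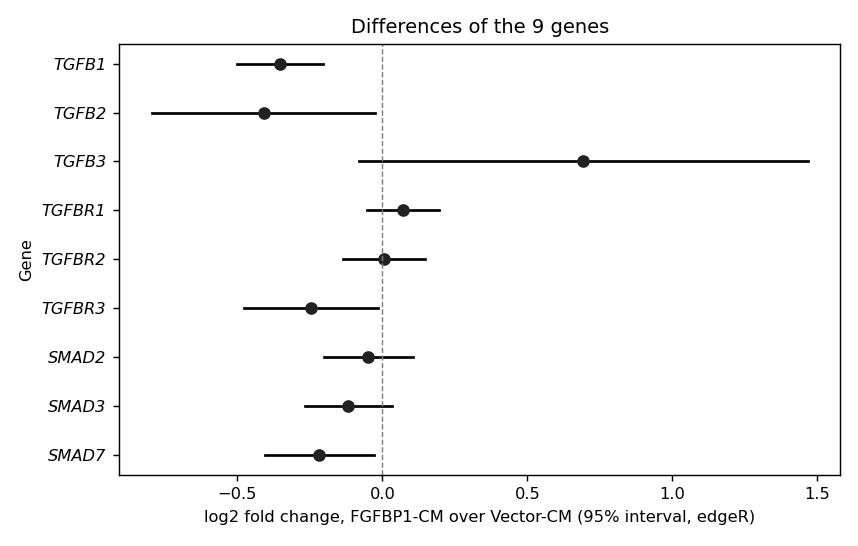
log2 fold change of each gene between FGFBP1-CM and Vector-CM with its 95% interval from edgeR; the dashed line is 0. The intervals of TGFB1, TGFB2, TGFBR3 and SMAD7 lie below 0 before adjustment over all tested genes, and TGFB3 has the widest.

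Of the 9 genes, 6 had a lower estimate in FGFBP1-CM, where 8235 of the 16707 tested genes did. The median of the 9 was -0.12 on the log2 scale, beside 0.00319 over all tested genes. At an unadjusted p under 0.05, 4 were lower (TGFB1, TGFB2, TGFBR3 and SMAD7) and none was higher, where 10.7% of all tested genes were lower and 11.1% higher. Without overlap between groups, 2 were lower (TGFB1 and SMAD7) and 1 was higher (TGFBR1), where 13.2% and 12.8% of all tested genes were. With 9 genes, such counts are a description. The tested genes outside the 9 whose log2 CPM followed that of TGFB1 most closely over the 6 libraries were CAPZB, which encodes an actin capping protein subunit (Pearson r = 0.999), the histone gene H2AW (r = 0.998) and ASS1, which encodes an enzyme of arginine synthesis (r = 0.998). They were picked as the highest correlations among all tested genes over only 6 libraries, so these r values are a description. Their own log2 fold changes were -0.23, -0.62 and -0.49 (edgeR).

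The wider pathway was read from 6 lists of 93 genes, of which 82 were tested. Only TIMP1 passed the threshold, and 55 of the 82 had a lower estimate, with a median of -0.08 over the 82. Over all 16707 tested genes, 8235 had a lower and 8472 a higher estimate. At an unadjusted p under 0.05, 20 of the 82 were lower and 8 higher, where 10.7% and 11.1% of all tested genes were, and the counts of the single lists below are to be read against the same shares. The list of 25 target genes alone held 11 of the 20, 1 of the 8 and 22 of the 55 lower estimates. Of the 5 other SMADs, none passed and none had an unadjusted p under 0.05, with lowest p for SMAD1, SMAD9 and SMAD6 (log2 fold changes 0.14, -0.11 and -0.17, adjusted p = 0.447, 0.525 and 0.690, edgeR). SMAD1 and SMAD9 carry bone morphogenetic protein (BMP) signals, and SMAD6 inhibits them.

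Of the 12 tested genes of latency and activation, 11 had a lower estimate, 3 of them at an unadjusted p under 0.05, and none passed. LTBP4, a latent TGF-β binding protein, had 102, 90.1 and 94.2 CPM in Vector-CM and 54.9, 81.1 and 72.6 CPM in FGFBP1-CM, with no overlap and an edgeR estimate of -0.46 on the log2 scale (SE 0.112, adjusted p = 0.0680). The integrin subunit genes ITGB1 and ITGB5, whose products take part in releasing latent ligand, had log2 fold changes of -0.19 and -0.14 (adjusted p = 0.178 and 0.229, edgeR). Of the 11 tested activin, BMP and GDF ligands and antagonists, 7 were lower in estimate and none passed, with 5 lower and 2 higher at an unadjusted p under 0.05. The lowest p were those of FSTL3 and NBL1, which encode antagonists, at -0.32 and -0.25 (adjusted p = 0.117 and 0.124), and of the ligand gene BMP4 at 0.42 (adjusted p = 0.129, edgeR for all).

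None of the 11 other receptor and co-receptor genes passed, and 1 was lower and 1 higher at an unadjusted p under 0.05. BAMBI, which encodes a decoy receptor, was estimated at -0.30, the activin receptor gene ACVR2A 0.37 and the BMP receptor gene BMPR2 0.12 (adjusted p = 0.153, 0.192 and 0.287, edgeR). Of 18 feedback and cofactor genes, 13 had a higher estimate, 4 of them at an unadjusted p under 0.05, and none passed, with EP300 and CREBBP, coactivators of SMADs, at 0.22 and 0.17 and the deubiquitinase gene USP15 at 0.23 (adjusted p = 0.128, 0.167 and 0.177, edgeR).

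**Figure D5:**
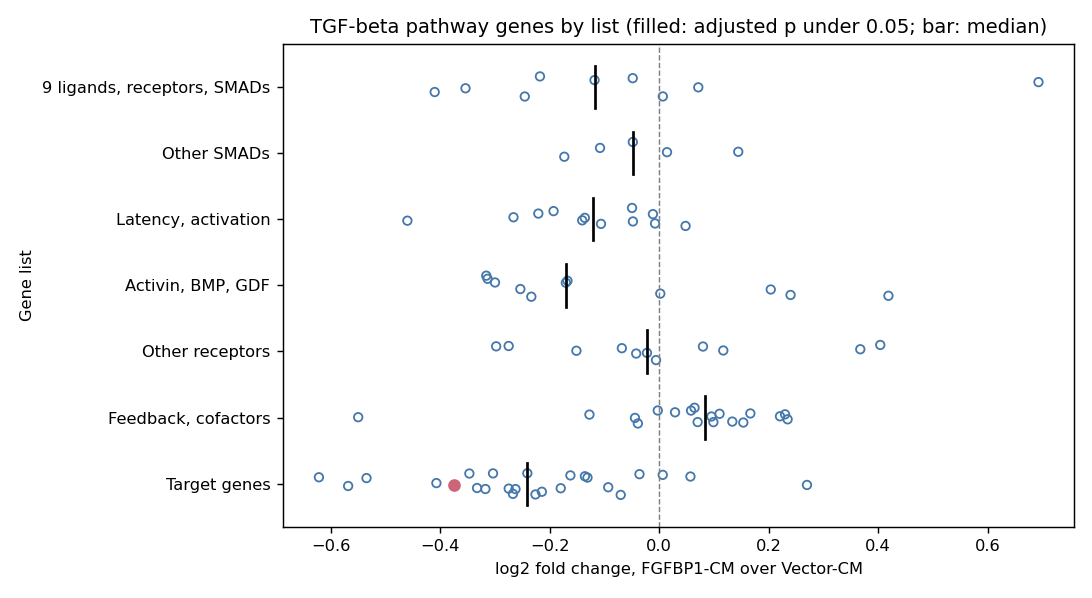
log2 fold change between FGFBP1-CM and Vector-CM for every tested gene of each list, with the list's median as a bar and genes at an adjusted p under 0.05 filled. TIMP1 among the target genes is the only filled point, and the target gene median of -0.24 lies farthest below 0.

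Of 25 target genes, 22 had a lower estimate, 11 of them at an unadjusted p under 0.05, and 1 passed. Their median was -0.24 on the log2 scale. Of these genes 6 are also on the stellate cell marker list (TIMP1, VIM, ACTA2, COL1A1, COL1A2 and COL3A1), whose 12 tested members all had a lower estimate, 5 of them at an unadjusted p under 0.05, with a median of -0.29. The part of a shift in stellate markers in the target gene counts was not tested. TIMP1, which encodes an inhibitor of matrix metalloproteinases, had 320, 352 and 332 CPM in Vector-CM and 253, 258 and 262 CPM in FGFBP1-CM. It fell without overlap by 0.38 on the log2 scale (SE 0.0623, edgeR adjusted p = 0.0465), and lost its call in edgeR without any 1 of the Vector-CM libraries. Among the other target genes, all named here after their values were seen, LOX (collagen crosslinking), TAGLN (an actin-binding protein of contractile cells) and FN1 (fibronectin) had log2 fold changes of -0.53, -0.62 and -0.57, with adjusted p of 0.0566, 0.0568 and 0.0568 (edgeR), and did not overlap between groups. FN1 was 1180, 1213 and 1147 CPM in Vector-CM and 651, 997 and 741 CPM in FGFBP1-CM. Unlike these, SNAI2 had a higher estimate, 0.27 (adjusted p = 0.124, edgeR), and ACTA2, the smooth muscle actin gene of activated stellate cells, had -0.18 (adjusted p = 0.556, edgeR).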

How the data were processed

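RNA sequencing of LX-2 cells in Vector-CM (n = 3) and FGFBP1-CM (n = 3) was analysed from the deposited table, grouped by the labels. Alignment was by HISAT2 2.0.5, and the authors deposited raw counts per gene from featureCounts 1.5.0-p3. The deposited table also holds FPKM from the authors, and their fold changes and p-values in the same table were not used. The submitters' processing notes name hg18, with no role, and also DESeq2 1.16.1 and edgeR, while the annotation release and strand setting are not given in the sources used here. Both poly(A) selection and ribosomal RNA depletion are described. Coordinates are those of GENCODE 29 (GRCh38) for the same Ensembl identifiers, and promoter sequences those of RefSeq (GRCh38.p14), which held all 9 genes.

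The groups were compared by the quasi-likelihood F-test of edgeR 4.0.16 (R 4.3.3) after filterByExpr and TMM scaling. Benjamini-Hochberg adjustment ran over 16707 genes, with a threshold of 0.05. The 9 genes and the lists were chosen with earlier results of these data known. All 9 genes are named, with every gene of the 6 lists past the threshold or, where none passed, the 3 with the lowest p, and the 3 genes that followed TGFB1 most closely. Target genes other than TIMP1 were outside this rule and were named after their values were seen. The values of 1 further target gene are not reported here. The labels do not say that libraries came from separate cultures. The p-values therefore set the group difference against the spread between these libraries, which edgeR draws toward a trend over all genes. Whether that spread is one between cultures is not known. With 3 against 3, an exact permutation test cannot go below 0.1, and none was used. Alternatives were RLE scaling, library size only, other filters on low counts, DESeq2 1.42.0, limma 3.58.1 on log2(FPKM + 1) and log2(FPKM + 0.1), a replicate block, a GC and length correction (loess span 0.3), and leaving out each library in turn. The GC and length correction was revised once after its results had been seen, because its first form applied the library scaling a second time. TGFB1 passed the threshold under that first form, with and without the replicate block, and does not under the revised form. Levels per principal transcript length were added after the data were seen. The procedures were tested on simulated counts, with 200 of 16707 genes changed 2-fold in each of 3 draws. The main edgeR test recovered 81.5% of these genes, and 5.6% of its calls were false. DESeq2 recovered 78% with 5.21% false calls, limma 81.5% with 7.02%, and edgeR with the replicate block 82.2% with 7.9%. Smaller changes, such as that of TGFB1, were not simulated.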

Additional observations from a re-analysis of the deposited data

How the results depend on the processing

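Over 16 alternatives, the 9 genes gave 142 values, of which 131 kept their direction and their side of the threshold, 4 passed it (all TGFB1) and 7 reversed. Over the tested genes with a known GC content, the log2 fold change had a Spearman correlation of -0.206 with GC content, and of -0.0152 after correction. With GC and length correction, the log2 fold change of TGFBR1 was -0.0130 and that of TGFBR2 -0.0221, and with the replicate block added they were -0.0125 and -0.0228. The rest of the 9 kept their direction with the correction alone. They stood at -0.283 (TGFB1), -0.487 (TGFB2), 0.662 (TGFB3), -0.303 (TGFBR3), -0.153 (SMAD2), -0.127 (SMAD3) and -0.162 (SMAD7). With 1 library left out, TGFBR2 ran from -0.0340 (without FGFBP1-CM replicate 2; -0.0188 without Vector-CM replicate 1) to 0.0462, and SMAD2 from -0.112 to 0.0206 (without FGFBP1-CM replicate 1). TGFB3 gave no value in DESeq2 or at a mean of at least 1 CPM. Against 20 genes called over the whole table (9 higher), RLE scaling gave 38 (24 higher), no filter 1382, DESeq2 580, a minimum mean of 1 CPM 11, limma 1 with either pseudocount, GC and length correction 123, and leaving out 1 library 4 to 883 (883 without FGFBP1-CM replicate 2, 402 without replicate 3, 72 without replicate 1, and 4 to 6 without a Vector-CM library). Of the 9 genes, 1 passed (TGFB1) with no filter and in DESeq2, and 0 to 1 when 1 library was left out. The other pathway genes past the threshold were 1 as reported, 0 with library size only, with a mean of at least 1 CPM and in limma, 12 with no filter, 8 in DESeq2, 4 with GC and length correction, and 0 to 11 when 1 library was left out (0 without any Vector-CM library, 11 without FGFBP1-CM replicate 2). With the replicate block, 90 genes and 3 pathway genes (FN1, TAGLN and TIMP1) passed, and none of the 9, with TGFB1 at an adjusted p of 0.0502 (edgeR), and with that block and GC and length correction 163 genes, 8 pathway genes and none of the 9 did. The deviations of same-numbered libraries had correlations of -0.137, -0.0178 and 0.161 over 15033 genes. With 3 libraries per group, these values cannot settle whether the numbers pair the libraries, and the labels do not say. Per principal transcript length, TGFB1 was 96.0% of the summed ligand level. At 9 to 25 counts per library, TGFB3 is limited by depth.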
